A study of Homo sapiens with 18 samples.

Results

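The genes described are the translation initiation and elongation factor genes, taken as every transcript of the readthrough table whose GENCODE v44 symbol starts with EIF or EEF followed by a digit, with the RNA helicases EIF4A1, EIF4A2 and EIF4A3 left out. There were 60 such genes among the 13051 transcripts of the table. A readthrough read is a nascent RNA molecule whose 3′ end lies more than 100 bases past the last exon of a gene, so that its polymerase had passed the annotated cleavage site without release of the RNA. Of the 60 genes, 57 had at least 1 readthrough read in the 18 libraries, and EIF4E3, EEF1A2 and EEF1E1-BLOC1S5 had none.

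Translation of most mRNAs starts when the eIF4F complex binds the cap and recruits a small ribosomal subunit that carries eIF1, eIF1A, eIF3, eIF5 and the initiator tRNA bound to eIF2. The subunit scans to the start codon, eIF5 triggers GTP hydrolysis by eIF2, and eIF5B joins the large subunit. In elongation, eEF1A delivers aminoacyl-tRNAs to the ribosome and eEF2 moves the ribosome along the mRNA. Some of these factors, like many ribosomal proteins, are encoded by abundant mRNAs whose first bases form a terminal oligopyrimidine tract. The tract places their translation under control of mTOR.

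The cells were K562 throughout, an established line from a chronic myeloid leukemia in blast crisis that is driven by the Bcr-Abl1 kinase. Chromatin-bound RNA was sequenced as PacBio long reads in 3 biological replicates of each of 6 conditions. CTRL and CTRLim were both untreated, and CTRLim is the control labelled as belonging to the imatinib libraries. KCl 45min received 110 mM KCl, which gives hyperosmotic shock, for 45 min. JTE 1h received 5 µM JTE-607, an inhibitor of the cleavage endonuclease CPSF73, for 1 h. IM 1h and IM 18h received 1 µM imatinib, an inhibitor of Bcr-Abl1, for 1 h and 18 h. As a single cell line these cells are one genetic background, and in bulk samples fewer transcribing cells and fewer reads per cell cannot be told apart.

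Libraries held 229855 to 1349556 reads after all filters, of which 8422 to 57982 were readthrough reads, so 1 read was worth 0.741 to 4.35 reads per 1000000 library reads. In CTRL, KCl 45min and JTE 1h between 40.5% and 44.1% of raw reads were mapped, against 84.3% to 91.6% in CTRLim, IM 1h and IM 18h, so that a treatment or group difference across these 2 sets and a difference between the sets cannot be told apart. JTE 1h replicate 1 stood apart from its group, with 3.06% readthrough reads against 5.40% and 5.05% and a median read length of 1313 against 1813 and 1694 bases. Read length varied in the other groups of this set too. The medians of replicates 1, 2 and 3 were 1409, 1427 and 1711 bases in CTRL and 1390, 1711 and 1552 in KCl 45min. CTRL replicates 1 and 2 were thus shorter than JTE 1h replicates 2 and 3. The erythroid genes HBG1, HBE1 and TAL1 had 4159, 2768 and 408 readthrough reads, while EPCAM, a marker of epithelial cells, had 4 reads. Levels are given as RPM, reads per 1000000 library reads, a measure that rises with transcription as well as with loss of cleavage. Gene body reads were not used here.

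The 3′ ends at which readthrough was scored were examined first, since each member is measured from that base on. Shown are 30-base windows around the poly(A) signal of 6 members named further on that held such a signal. They were read from GRCh38 on the transcript strand, 5′ to 3′, with the hexamer in capitals. The windows lie at chr6:73515755-73515784 (-) for EEF1A1, chr17:41692635-41692664 (+) for EIF1, chr12:53042174-53042203 (+) for EIF4B, chr7:6022259-6022288 (-) for EIF2AK1, chr14:103344987-103345016 (+) for EIF5, and chr7:74197061-74197090 (+) for EIF4H, all within the last exon of the transcript.
EEF1A1: cttgctcactacAATAAAtgaattttaagc
EIF1: ccaacacgaactAATAAAttttgctaaaac
EIF4B: ttgttttctccaAATAAAtctgatctttaa
EIF2AK1: ctatattcttacAATAAActtgagaaaatg
EIF5: aaagtagattttAATAAAgtgtgaaagttg
EIF4H: aatgatcttttaAATAAAagaaaaccttac
A window could be drawn only where a hexamer was found, and in these 6 it was the canonical AATAAA. The last 50 bases of each transcript were searched on its own strand for AATAAA and, where that was not found, for ATTAAA. Of the 60 members 37 held AATAAA and 4 held ATTAAA, together 68.3%, against 74.5% of the 12704 transcripts matched to the annotation. EIF1B, whose changes are described further on, was among those without either hexamer and so has no window. In the 100 bases past the annotated end the median GC content was 40.5% in members and 42% in all matched transcripts, and the median share of G and T was 52.5% and 55%.

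The starts are shown because some mRNAs of this class begin with a terminal oligopyrimidine tract. The windows below hold 15 bases before and 15 bases from the RefSeq start on GRCh38.p14, on the transcript strand, with the tract in capitals where the first base was a C followed by at least 4 pyrimidines. They lie at chr6:73521018-73521047 (-) for EEF1A1, chr12:53006441-53006470 (+) for EIF4B, chr17:41688870-41688899 (+) for EIF1 and chr3:40309692-40309721 (+) for EIF1B.
EEF1A1: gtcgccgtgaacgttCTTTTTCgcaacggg
EIF4B: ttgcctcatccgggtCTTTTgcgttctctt
EIF1: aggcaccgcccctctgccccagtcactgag
EIF1B: tcggccattttgtgcgagaagccgcagcgc
Of these 4 genes, which had the changes described further on, EEF1A1 and EIF4B held such a tract at the RefSeq start, and EIF1 and EIF1B did not. RefSeq starts were matched for 46 members, with 61 starts in all, of which 12 (19.7%) met the criterion. It was met by 744 of 14457 starts (5.15%) of the genes of the table and by 42 of 75 starts (56%) of cytosolic ribosomal protein genes. The other members whose start met it were EEF1B2, EEF2, EIF2A, EIF2D, EIF2S3, EIF2S3B, EIF3D, EIF3F, EIF3K and EIF3M. A match is a feature of the letters only and the starts used in K562 cells were not measured here.

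The members held 4059 readthrough reads, 0.907% of the 447434 in the table. EEF1A1, the gene of the main eEF1A isoform of dividing cells, held 1209 of them, or 29.8%. The transcript (ENST00000316292) lies at chr6:73515750-73521018 on the minus strand, has 7 exons and ranked 18 in the table by readthrough reads. EIF4B followed with 221 reads, so that EEF1A1 had 5.47 times as many, and the 10 members with most reads held 63.5% of all. With a median of 30.5 reads a member was read more often than the median transcript of the table, which had 10 reads, and 30 members (50%) had 30 reads or more, against 26.7% of the table.

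By role, the eEF1 genes held 1328 reads, the 13 eIF3 subunits 617 and the 8 members of eIF4F and its cofactors 564. The 6 genes grouped as scanning and start codon factors (EIF1, EIF1AX, EIF1AD, EIF1B, EIF5 and EIF5B) held 631. Whether EIF1AD acts in scanning was not examined. The 9 genes of eIF2, its exchange factor eIF2B and the related EIF2A and EIF2D held 450 reads. The eIF4E binding proteins held 171, the methyltransferases of elongation factors 89, the eIF5A genes 82 and the 3 eIF2 kinases 74. EEF2 and its kinase EEF2K held 31 reads between them, so that the gene of the translocation factor was far behind that of the tRNA carrier.

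**Figure D1:**
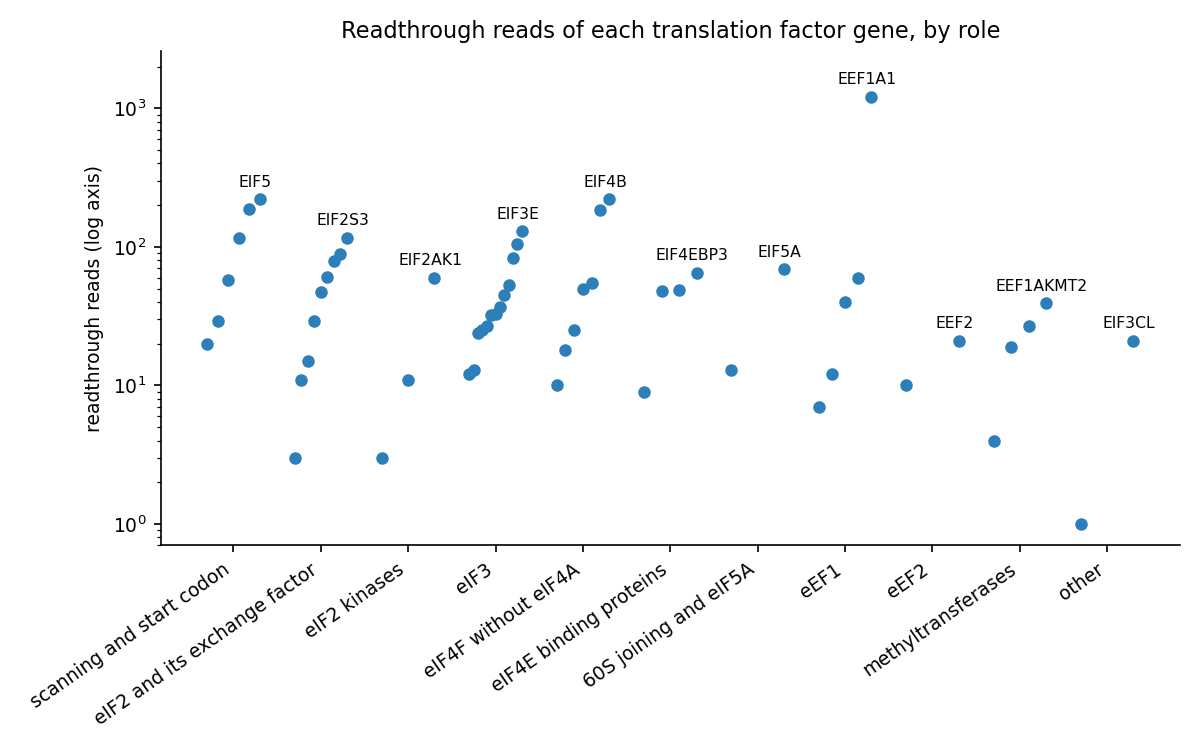
Readthrough reads of each member summed over the 18 libraries (y axis, log scale), grouped by role (x axis), with the member with most reads named in each group. EEF1A1 with 1209 reads stands above EIF4B with 221 and EIF5 with 220, and the 3 members with no read are not drawn.

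Members were not isolated from other genes. Another annotated gene overlapped the 3000 bases past the readthrough boundary of 34 members, on the same strand for 10 of them, and 7 members host small nucleolar RNA genes. EIF4H lies 2556 bases before LAT2 on the same strand, EIF4G1 568 bases before FAM131A and EEF1AKMT3 220 bases before TSFM. EIF3C and EIF3CL are near-identical copies, and EIF4EBP3 lies at the end of the ANKHD1-EIF4EBP3 locus, so their reads are uncertain. The strand setting of the count is not given in the sources used here, so reads of an opposite gene may be included, as could be the case past EIF2AK1, which AIMP2 overlaps.

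Summed over all members, readthrough reads were fewest in KCl 45min and IM 18h. In CTRL the 3 libraries held 347, 319 and 325 RPM (330.2 ± 14.4, SD, n = 3), and in KCl 45min 239, 274 and 208 RPM (240.0 ± 33.3). JTE 1h held 276, 556 and 464 RPM (432.1 ± 142.5). All KCl 45min libraries were below all CTRL libraries, whereas JTE 1h overlapped CTRL through its replicate 1.
In CTRLim the sum was 431, 372 and 416 RPM (406.4 ± 30.5), in IM 1h 426, 478 and 416 RPM (440.2 ± 33.2) and in IM 18h 243, 283 and 282 RPM (269.4 ± 23.3). IM 1h overlapped CTRLim, and all IM 18h libraries were below both. The sum in IM 18h was 0.663 times that in CTRLim and 0.612 times that in IM 1h. Without EEF1A1 these ratios were 0.806 and 0.706. For comparison, the 74 cytosolic ribosomal protein genes summed to 1700 ± 216 RPM in CTRLim, 1782 ± 42 in IM 1h and 879 ± 138 in IM 18h.

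As a share of all readthrough reads, the members with EEF1A1 included held the least in IM 18h. The share was 0.973% ± 0.062 in CTRL, 0.986% ± 0.031 in KCl 45min, 0.950% ± 0.070 in JTE 1h, 1.01% ± 0.06 in CTRLim and 1.00% ± 0.07 in IM 1h (SD, n = 3 each). In IM 18h it was 0.660%, 0.758% and 0.765% (0.728% ± 0.059), below each of the other 15 libraries, of which the lowest was JTE 1h replicate 1 with 0.902%. Without EEF1A1 the order was another. The share of the other members was 0.772% ± 0.018 in JTE 1h, 0.675% ± 0.078 in CTRL, 0.644% ± 0.046 in IM 1h, 0.617% ± 0.051 in CTRLim, 0.613% ± 0.017 in KCl 45min and 0.538% ± 0.017 in IM 18h. All JTE 1h libraries but replicate 3 were above all CTRL libraries, KCl 45min overlapped CTRL, and the highest IM 18h library, with 0.557%, was close to the lowest of CTRLim, with 0.569%. EEF1A1 alone took 0.395% ± 0.021 in CTRLim and 0.189% ± 0.048 in IM 18h, the larger part of the difference between these groups, and 0.298% ± 0.056 in CTRL and 0.373% ± 0.047 in KCl 45min. Readthrough reads of all genes were 2.43% ± 0.27 of library reads in KCl 45min and 3.399% ± 0.128 in CTRL. These sums were not tested.

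**Figure D2:**
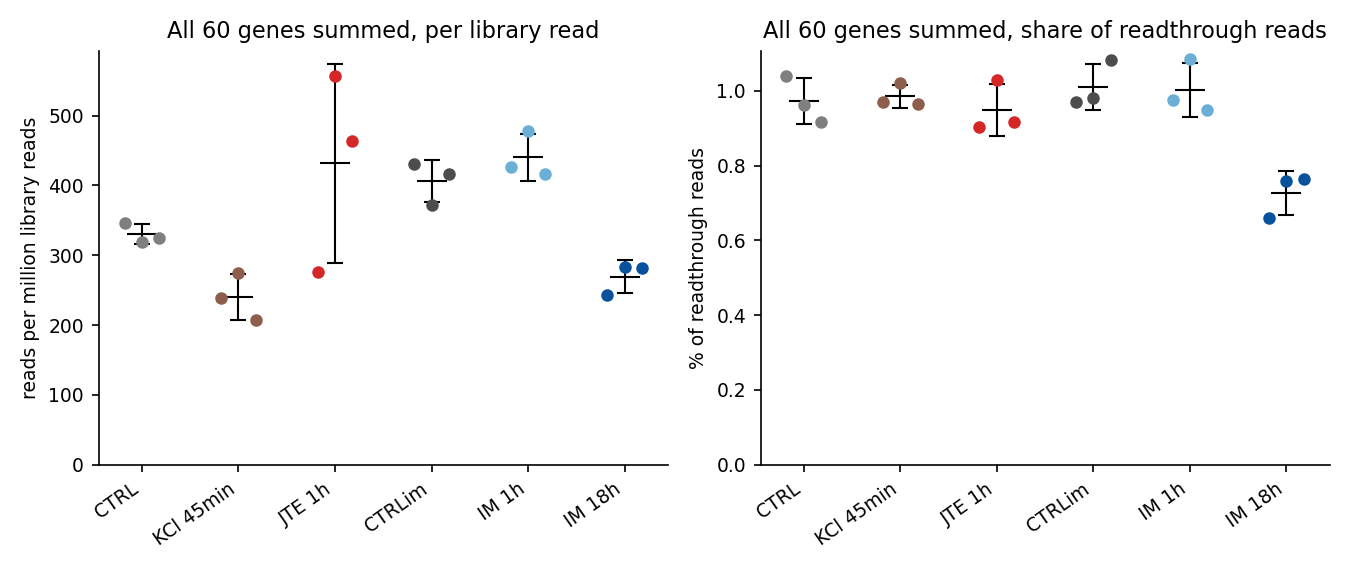
Readthrough reads of all 60 members summed in each library, in reads per 1000000 library reads (left, y axis) and as a percent of readthrough reads (right, y axis), by condition (x axis). Points are libraries and bars are the mean and SD of 3. On the right the 3 IM 18h libraries lie between 0.660% and 0.765% and all others at 0.902% or more.

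EEF1A1 was the member with most reads in every library and fell at 18 h of imatinib. The libraries held 178, 141 and 158 RPM in CTRLim (159.2 ± 18.8), 149, 173 and 152 RPM in IM 1h (157.8 ± 13.1) and 50, 75.2 and 85.2 RPM in IM 18h (70.1 ± 18.1). Every IM 18h library was below every CTRLim and IM 1h library, and CTRLim and IM 1h overlapped. The log2 fold change was -1.15 (SE 0.24) from CTRLim to IM 18h, with an adjusted p of 0.000439 by the quasi-likelihood test of edgeR after Benjamini-Hochberg adjustment. From IM 1h to IM 18h it was -1.15 (SE 0.16, edgeR adjusted p = 4.77e-09). Both comparisons use the same IM 18h libraries. From CTRLim to IM 1h it was 0.01 (SE 0.20, edgeR adjusted p = 0.972). The fall at 18 h stayed past the threshold when TMM factors, the trimmed mean scaling of edgeR, or total readthrough reads set the library size, with log2 fold changes of -1.02 and -1.04 against CTRLim and -0.85 and -0.90 against IM 1h. Against CTRL in place of CTRLim it was -0.53, with an edgeR adjusted p of 0.187.

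In the other set of libraries the means of EEF1A1 were lower than in CTRLim and IM 1h but higher than in IM 18h. CTRL had 94.3, 119 and 88.9 RPM (100.9 ± 16.3), KCl 45min 85.2, 115 and 73.9 RPM (91.3 ± 21.1) and JTE 1h 39.2, 130 and 82.8 RPM (84.1 ± 45.6). Ordered by their means, the conditions ran from CTRLim and IM 1h, which overlapped, down to CTRL, which did not overlap CTRLim, and on through KCl 45min and JTE 1h to IM 18h, each of these overlapping the next. The log2 fold change was -0.17 (SE 0.48, edgeR adjusted p = 0.831) in KCl 45min and -0.26 (SE 0.48, edgeR adjusted p = 0.858) in JTE 1h. Without JTE 1h replicate 1 the latter was 0.05. Between the untreated groups, CTRLim exceeded CTRL by 0.64 (SE 0.32, edgeR adjusted p = 0.198).

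EEF1A1 took a smaller part of the member reads in JTE 1h than in CTRL. It made up 14.2%, 23.4% and 17.9% of the member reads in JTE 1h, against 27.2%, 37.4% and 27.4% in CTRL. Of all readthrough reads it took 0.128%, 0.241% and 0.164% in JTE 1h and 0.283%, 0.360% and 0.251% in CTRL, so the groups did not overlap, though the nearest values were close. Of the 969 genes tested, 5.78% had JTE 1h shares that were all below those of CTRL. Per library read, the members without EEF1A1 were 1.52 times as high in JTE 1h as in CTRL, and EEF1A1 was 0.834 times as high. At total readthrough reads as library size the log2 fold change of EEF1A1 was -0.74 (edgeR adjusted p = 0.666).

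**Figure D3:**
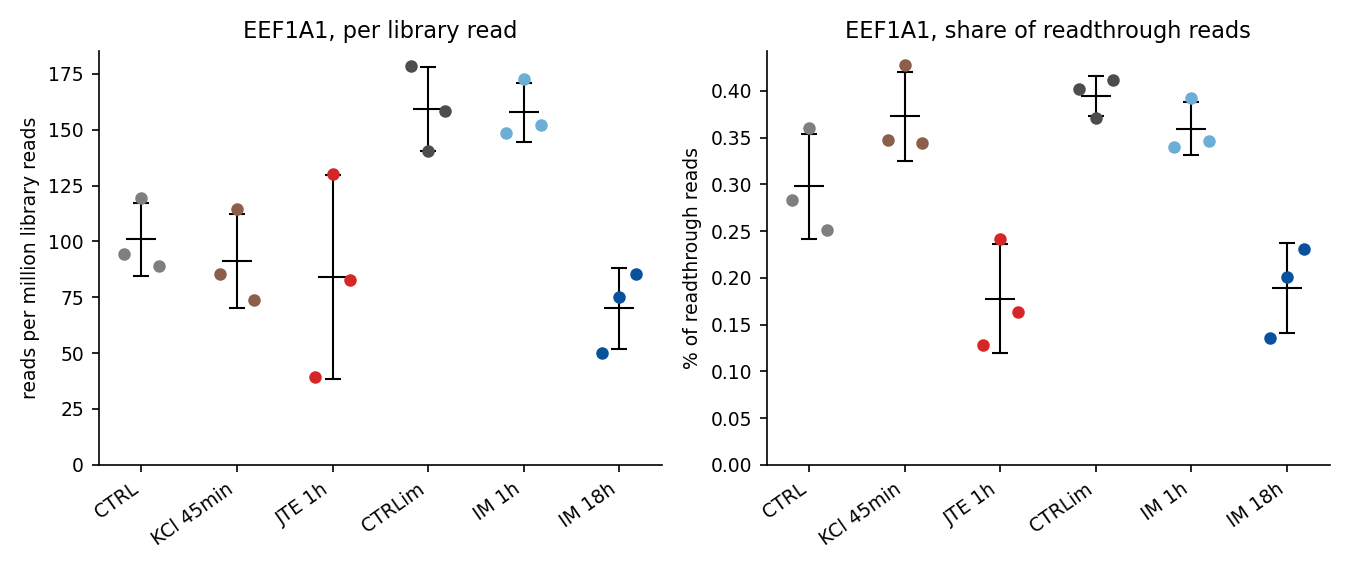
Readthrough reads of EEF1A1 in each library, in reads per 1000000 library reads (left, y axis) and as a percent of readthrough reads (right, y axis), by condition (x axis). Points are libraries and bars are the mean and SD of 3. In IM 18h the values run from 50 to 85.2 RPM, all below the CTRLim and IM 1h libraries.

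The question of which single members changed with imatinib was asked over every gene that reached 30 readthrough reads in the 6 libraries compared. From IM 1h to IM 18h 14 members were tested and 4 fell, namely EEF1A1, EIF1, EIF1B and EIF4B, and none rose. Of the 1720 genes tested 18.3% were called in either direction and 14.1% fell, and the median log2 fold change was -0.53 for the 14 members and -0.30 for all genes. With TMM scaling the median of all genes was -0.01, and 1 member fell (EEF1A1) and 1 rose (EIF2AK1), while over all genes 96 fell and 114 rose, against 243 and 72 at library reads. From CTRLim to IM 18h 12 members were tested and EEF1A1 alone was called. There 14.1% of 1386 genes were called and 8.95% fell, and the median was -0.24 for members and -0.01 for all genes. Groups did not overlap for 4 of the 14 and 4 of the 12 members, against 34.8% and 31.7% of all genes tested. From CTRLim to IM 1h none of 9 members was called by edgeR, none had an unadjusted p under 0.05 and DESeq2 called none. In that comparison 1.52% of 988 genes were called and the groups of 18.4% did not overlap.

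**Figure D4:**
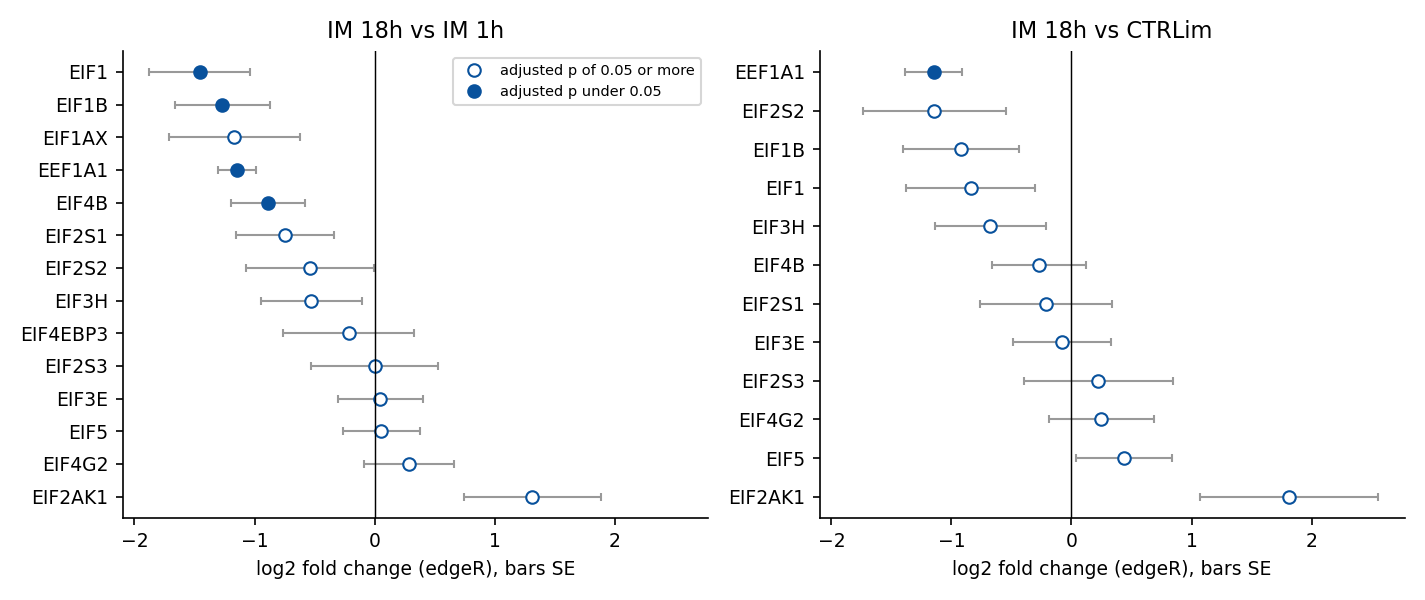
Log2 fold changes from edgeR (x axis) with their standard errors as bars for the members tested (y axis) from IM 1h to IM 18h (left) and from CTRLim to IM 18h (right). Filled points had an adjusted p under 0.05, which were EIF1, EIF1B, EEF1A1 and EIF4B on the left and EEF1A1 on the right.

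Of the scanning and start codon factors EIF1, EIF1AX, EIF1B and EIF5 were tested between the imatinib times, and EIF1 and EIF1B fell. EIF1, at chr17:41688885-41692668 (+), guards start codon selection by holding the scanning subunit open. It had 13.4, 27.9 and 12.5 RPM in IM 1h and 7.45, 4.70 and 6.67 RPM in IM 18h, from 35 and 22 reads, and the groups did not overlap. The log2 fold change was -1.46 (SE 0.42, edgeR adjusted p = 0.00723). IM 1h replicate 2 was the highest library, and without it the change was -1.05 with an edgeR adjusted p of 0.148. CTRLim had 17.4, 9.26 and 10.2 RPM, all above IM 18h, but that comparison gave -0.84 (SE 0.53, edgeR adjusted p = 0.315).

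Among the members tested, EIF1 was also the one whose libraries did not overlap CTRL in either of the other treatments. CTRL had 16.6, 21.9 and 11.6 RPM, JTE 1h 28.3, 50.6 and 40.1 RPM, and KCl 45min 7.30, 3.19 and 9.47 RPM. All JTE 1h libraries, replicate 1 included, were above and all KCl 45min libraries below those of CTRL. The log2 fold changes were 1.21 (SE 0.58, edgeR adjusted p = 0.440) and -1.17 (SE 0.65, edgeR adjusted p = 0.208), so that neither passed the test. Both use the same CTRL libraries.

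EIF1B, at chr3:40309707-40312424 (+), encodes a close paralog of eIF1. Its levels were 23.8, 6.98 and 22.4 RPM in IM 1h and 7.45, 6.26 and 8.89 RPM in IM 18h. IM 1h replicate 2 was within the range of IM 18h, and the log2 fold change was -1.27 (SE 0.40, edgeR adjusted p = 0.0158). The call was lost without IM 1h replicate 1 (edgeR adjusted p = 0.121) or replicate 3 (edgeR adjusted p = 0.161). In CTRLim EIF1B had 26.1, 7.41 and 16.2 RPM, which overlapped both. CTRL and KCl 45min were lower, with 3.84 ± 1.05 and 3.63 ± 1.08 RPM.

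EIF5, the GTPase-activating protein of eIF2, was not called. It had 25.3, 19.2 and 17.4 RPM in IM 1h and 23.4, 18.8 and 22.2 RPM in IM 18h, which overlapped. The log2 fold change was 0.06 with an SE of 0.32 (edgeR adjusted p = 0.925). EIF1AX, the gene of eIF1A, had 9.04 ± 7.36 RPM in IM 1h and 3.82 ± 1.55 in IM 18h (log2 fold change -1.17, SE 0.55, edgeR adjusted p = 0.130), and 10 of its 17 reads in IM 1h were in replicate 2.

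**Figure D5:**
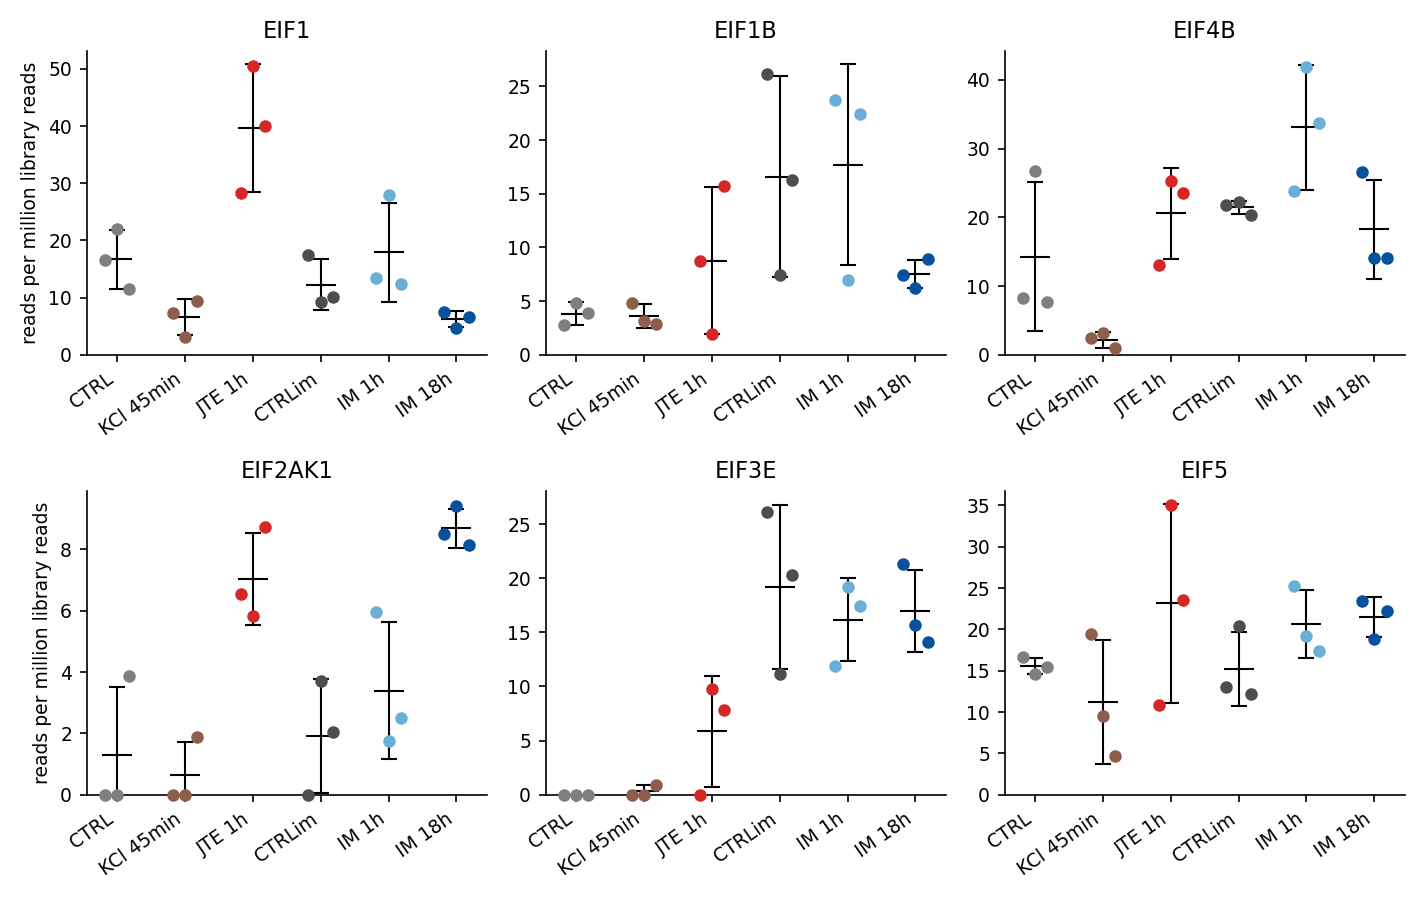
Readthrough reads per 1000000 library reads (y axis) of 6 members in each library, by condition (x axis). Points are libraries and bars are the mean and SD of 3, shown from 0 up. EIF1 is highest in JTE 1h, EIF2AK1 is higher in all IM 18h than in all IM 1h libraries, and EIF3E has 0 reads in all CTRL libraries.

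EIF4B, the cofactor that stimulates the helicase eIF4A, lies at chr12:53006456-53042215 (+). It had 23.8, 41.9 and 33.6 RPM in IM 1h and 26.6, 14.1 and 14.1 RPM in IM 18h. Replicate 1 of IM 18h exceeded replicate 1 of IM 1h, so the groups overlapped. The log2 fold change was -0.89 (SE 0.31, edgeR adjusted p = 0.0307), and it lost the call without IM 1h replicate 2 or 3 or IM 18h replicate 2 or 3, with edgeR adjusted p values of 0.211, 0.143, 0.0994 and 0.105. IM 1h was above CTRLim, which had 21.8, 22.2 and 20.3 RPM, in all libraries, with a log2 fold change of 0.61 (SE 0.34, edgeR adjusted p = 0.441).
In KCl 45min EIF4B had 1 read in each library, 2.19 ± 1.14 RPM, against 3, 11 and 2 reads in CTRL, 14.3 ± 10.8 RPM. These 19 reads were under the minimum of the test. At a minimum of 10 reads the log2 fold change was -2.92 (SE 0.90, edgeR adjusted p = 0.0172), and with no filter on reads the call was lost.

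EIF4G2, which encodes an eIF4G-like scaffold that does not bind eIF4E, was not called between the imatinib times, with 13.3 ± 4.1 RPM in IM 1h and 15.6 ± 5.3 in IM 18h (log2 fold change 0.28, SE 0.37, edgeR adjusted p = 0.644). EIF4H, a homolog of the RNA-binding part of eIF4B that the study discusses, had 55 reads in all and was under the minimum of the test in every comparison. EIF4H was not called at a minimum of 10 reads or with no filter on reads either. Its means were 6.30 ± 5.87 RPM in CTRL, 0.947 ± 1.641 in KCl 45min, 5.58 ± 3.28 in JTE 1h, 4.50 ± 3.95 in CTRLim, 4.89 ± 4.90 in IM 1h and 4.33 ± 2.02 in IM 18h, and the libraries of CTRL overlapped those of each other condition. EIF4E, the cap-binding protein, was chosen after its values were seen. It had 15.2, 17.5 and 6.10 RPM in JTE 1h and 2.77, 0 and 3.87 RPM in CTRL, which did not overlap, and was under the minimum of the test. At a minimum of 10 reads and with no filter on reads EIF4E was included in this comparison and was not called. EIF4G1, the main scaffold of eIF4F, had 10 reads in all, and EIF4G3 and EIF4E2 had 18 and 25.

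Among the genes of eIF2 and eIF2B none was called. EIF2S1, the alpha subunit whose phosphorylation stops initiation, had 14.9, 14 and 12.5 RPM in IM 1h and 5.32, 9.39 and 8.89 RPM in IM 18h. The groups did not overlap, and the log2 fold change was -0.75 (SE 0.41, edgeR adjusted p = 0.212). EIF2S2, the beta subunit, had 12.2 ± 4.7 RPM in CTRLim and 4.62 ± 3.96 in IM 18h (log2 fold change -1.14, SE 0.59, edgeR adjusted p = 0.207). EIF2S3, the gamma subunit that binds GTP and tRNA, had 7.37 ± 1.39 RPM in IM 1h and 7.61 ± 2.63 in IM 18h, and 17.8 ± 8.2 in JTE 1h against 10.4 ± 4.5 in CTRL (log2 fold change 0.81, SE 0.66, edgeR adjusted p = 0.660). Of the eIF2B subunits EIF2B5 had 61 reads, EIF2B3 47, EIF2B1 15 and EIF2B2 11.

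EIF2AK1, the heme-regulated kinase of eIF2 alpha in erythroid cells, had its highest mean in IM 18h. It lies at chr7:6022247-6059175 (-) and had 8, 12 and 11 reads in IM 18h, 4, 1 and 2 in IM 1h and 0, 2 and 1 in CTRLim. These were 8.51, 9.39 and 8.15 RPM in IM 18h, 5.94, 1.74 and 2.49 RPM in IM 1h and 0, 3.70 and 2.03 RPM in CTRLim. All IM 18h libraries were above all of both other groups. The log2 fold change was 1.81 (SE 0.74, edgeR adjusted p = 0.0957) against CTRLim and 1.31 (SE 0.57, edgeR adjusted p = 0.1002) against IM 1h, and neither passed the test. With TMM scaling the latter was 1.60 with an edgeR adjusted p of 0.0458. JTE 1h had 7.03 ± 1.503 RPM and CTRL 1.29 ± 2.23. The double-stranded RNA kinase EIF2AK2 had 11 reads and the amino acid sensor EIF2AK4 had 3.

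The subunits of eIF3, the scaffold between the small subunit and eIF4G, held no called member. EIF3E had no read in CTRL, 0, 0 and 1 in KCl 45min and 0, 5 and 9 in JTE 1h, but 6, 6 and 10 in CTRLim, 8, 11 and 14 in IM 1h and 20, 20 and 19 in IM 18h. Set against the 3 reads over the group that a count of 0 allows, CTRLim was 5.98-fold higher than CTRL. That ratio leaves out the counting error of the CTRLim reads and the spread between libraries. Both groups were untreated, so this is a difference between the library sets. Its transcript in the table is annotated as a retained intron form. Within the imatinib set EIF3E had 19.2 ± 7.6 RPM in CTRLim, 16.2 ± 3.8 in IM 1h and 17.0 ± 3.8 in IM 18h, with log2 fold changes of -0.12 (SE 0.42) and -0.08 (SE 0.41) against CTRLim.
EIF3H had 14.2 ± 2.8 RPM in CTRLim, 11.8 ± 5.8 in IM 1h and 8.32 ± 0.77 in IM 18h. IM 18h did not overlap CTRLim, and the log2 fold change was -0.68 (SE 0.46, edgeR adjusted p = 0.358). EIF3I and EIF3G were singled out after their values were seen. EIF3I had its higher means in the other set, with 11.9 ± 9.3 RPM in CTRL, 11.2 ± 11.5 in KCl 45min and 15.8 ± 3.3 in JTE 1h against 5.95 ± 1.53 in CTRLim, 4.23 ± 1.75 in IM 1h and 1.46 ± 0.67 in IM 18h. EIF3G had 2, 3 and 6 reads in JTE 1h and 0 in all CTRL, KCl 45min and IM 1h libraries. Against the 3 reads that 0 reads over CTRL allow, JTE 1h was 1.78-fold higher. That ratio leaves out the counting error of the few JTE 1h reads, so a difference is not established. The 9 remaining subunits had 12 to 53 reads each.

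The eIF4E binding proteins, which keep eIF4E from eIF4G when mTOR is inactive, were read most in JTE 1h, with 26.6 ± 13.6 RPM in sum against 11.96 ± 7.27 in CTRL, and the groups overlapped. EIF4EBP1 had 1, 5 and 21 reads in JTE 1h and 4, 1 and 0 in CTRL (log2 fold change 1.16, SE 1.00, edgeR adjusted p = 0.679). EIF4EBP3 had 6.05 ± 2.01 RPM in IM 1h and 5.02 ± 2.52 in IM 18h (log2 fold change -0.21, SE 0.55, edgeR adjusted p = 0.819). EIF5A, which helps ribosomes over proline stretches, had 69 reads and its paralog EIF5A2 13, and both were under the minimum of the test in every comparison.

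The eEF1 genes other than EEF1A1 did not share its level. EEF1G and EEF1B2, subunits of the complex that reloads eEF1A with GTP, had 60 and 40 reads, and EEF1D and EEF1E1 had 7 and 12. Their sum was 13.1 ± 5.1 RPM in CTRL, 11.9 ± 2.6 in KCl 45min, 14.6 ± 2.9 in JTE 1h, 9.89 ± 5.04 in CTRLim, 8.87 ± 1.53 in IM 1h and 5.88 ± 2.34 in IM 18h. The lowest mean was in IM 18h as for EEF1A1, with 3, 9 and 10 reads, but IM 18h overlapped CTRLim. EEF2 had 21 reads and EEF2K, the kinase that inactivates eEF2, had 10, with at most 5 reads of EEF2 and 3 of EEF2K in any library. The 4 methyltransferase genes EEF1AKMT1, EEF1AKMT2, EEF1AKMT3 and EEF2KMT had 4, 39, 19 and 27 reads. Apart from EEF1A1, no member of these groups reached the minimum of the test in any comparison.

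Under JTE-607 and KCl no member was called by edgeR. In JTE 1h 8 members were tested, of which EIF1 had an unadjusted p under 0.05, and DESeq2 called none. The median log2 fold change was 0.53 for these 8 and 0.49 for the 969 genes tested, of which 0.103% were called, and the groups of 1 member and of 13.8% of genes did not overlap. Of the 53 members with a read in either group, 34 (64.2%) had a higher mean in JTE 1h, against 67.4% of all transcripts with a read.
In KCl 45min 5 members were tested, none with an unadjusted p under 0.05 and none called by DESeq2. The median log2 fold change was -0.64 for these 5 and -0.39 for all 378 genes tested, of which 25.1% were called, and the groups of 1 member (EIF1) and of 35.7% of genes did not overlap. Counted over all members with a read, 40 of 54 (74.1%) had a lower mean in KCl 45min, against 54.8% of all transcripts with a read. These shares, as in JTE 1h, are not matched in depth, with a median of 30.5 reads for members and 10 for all transcripts. Of the genes tested, 62.4% had a negative log2 fold change in KCl 45min, against 4 of 5 members. In JTE 1h 77.6% had a positive one, against 7 of 8 members. With TMM scaling the median of all genes moved from 0.49 to 0.09 in JTE 1h and from -0.39 to 0.05 in KCl 45min, where that of the 5 members moved from -0.64 to -0.20. In CTRLim against CTRL 5 members were tested and none was called by edgeR or DESeq2 or had an unadjusted p under 0.05, where 10.6% of 472 genes were called and the groups of 1 member (EEF1A1) and of 32.2% of genes did not overlap.

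Other genes of the pathway gave the following counts in the same fits. Of 25 cytosolic partners of translation, 23 were in the table, 7 were tested between the imatinib times and EIF4A2 and TPT1 fell. EIF4A2, an isoform of the helicase of eIF4F, had 283 ± 18 RPM in IM 1h and 167 ± 16 in IM 18h (log2 fold change -0.77, SE 0.12, edgeR adjusted p = 3.92e-07), and TPT1, which encodes a translationally controlled protein, had 41.8 ± 7.0 and 20.1 ± 5.8 RPM (log2 fold change -1.02, SE 0.28, edgeR adjusted p = 0.00413). EIF4A2 also fell from CTRLim, which had 285 ± 54 RPM, to IM 18h (log2 fold change -0.76, SE 0.21, edgeR adjusted p = 0.0102). Between the untreated groups EIF4A2 was called too, with CTRLim above the 98.7 ± 22.3 RPM of CTRL (log2 fold change 1.5, SE 0.34, edgeR adjusted p = 0.00912). Its mean in IM 18h was thus above that of CTRL. Of 10 mitochondrial translation factors 1 was tested between the imatinib times and none was called. Of the cytosolic ribosomal protein genes 28 of 42 tested fell from IM 1h to IM 18h with a median of -1.01, and 15 of 40 fell from CTRLim with a median of -0.80. In KCl 45min 13 of 34 ribosomal protein genes fell and 1 rose, with a median of -1.22. Of all genes tested, 14.1% fell from IM 1h to IM 18h, 8.95% fell from CTRLim to IM 18h, and 79 of 378 fell in KCl 45min. The counts of this paragraph were made at library reads only.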

How the data were processed

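Nascent RNA of 18 K562 libraries was read as PacBio long reads. Per the labels and the study's methods, the authors trimmed adapters (cutadapt 3.4) and mapped reads to GRCh38 (minimap2 2.22) without secondary alignments. They removed duplicates by molecular identifier (UMICollapse 1.0.0), and dropped polyadenylated reads and entries with duplicate read names. The deposited counts are whole readthrough reads per gene, taken at its transcript with the distal-most end, neither normalized nor pooled. How reads were placed for genes with near-identical copies, such as EEF1A1 with its processed pseudogenes, was not examined.

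Transcripts were matched by identifier to GENCODE v44 (12704 of 13051, 347 not matched). Library size was the number of reads left after the authors' filters, listed by the study. Genes with at least 30 reads over the 6 libraries of a comparison were tested with edgeR 4.0.16 (glmQLFit, glmQLFTest, R 4.3.3), and Benjamini-Hochberg adjusted p under 0.05 was called. DESeq2 1.42.0 was run as a second tool. Each was also run on simulated counts with larger changes than those of the called members and no outlier library. That check does not show how they perform on these data. Members and lists were chosen with earlier results of these data known. Named by rule are EEF1A1, the 10 members with most reads, called members, up to 3 tested members per comparison with the largest change among non-overlapping groups, and EIF4H. Others are named with their role. Alternatives changed test, scaling, filter, libraries, control and block, added read length as a covariate, and left out each library. Sums were not tested. Sequences come from GRCh38 and from RefSeq on GRCh38.p14.

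Libraries held 229855 to 1349556 reads, and p-values measure the spread between 3 libraries labelled as biological replicates.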

Additional observations from a re-analysis of the deposited data

How the results depend on the processing

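Over the alternatives the fall of EEF1A1 at 18 h of imatinib kept its direction and its call, apart from CTRL as control, where it was -0.53. Leaving out 1 library gave -1.32 to -0.97 against CTRLim and -1.31 to -0.97 against IM 1h. The changes of EEF1A1 that passed no test turned sign in places. From CTRLim to IM 1h it was -0.16 with TMM scaling, -0.14 per total readthrough reads, -0.0042 in 1 fit of all 18 libraries, and -0.079 to 0.072 when 1 library was left out. In KCl 45min it was 0.25 with TMM and 0.31 per total readthrough reads. In JTE 1h it ran from -0.69 to 0.055 (without JTE 1h replicate 1) when 1 library was left out. With median read length as a covariate EEF1A1 was -0.61 in JTE 1h and -0.18 in KCl 45min, and EIF1 was 1.07 and -1.05. No member was called in either comparison with that covariate.

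Of the 4 members called between the imatinib times, DESeq2 and the fit of all 18 libraries called 1 (EEF1A1). TMM scaling also kept 1 of them (EEF1A1) and called EIF2AK1 as higher, 2 members in all. Total readthrough reads and no filter on reads each called 2 (EEF1A1 and EIF1), and leaving out 1 library called 2 to 4. With CTRL as control 3 members were called at 1 h (EIF1B, EIF2S1, EIF3E) and 3 at 18 h (EIF1, EIF2AK1, EIF3E), across the library sets. At a minimum of 10 reads 1 was called in KCl 45min (EIF4B) and 1 between the untreated groups (EIF3E). With no filter EIF4B lost its call and EIF3E kept it. The causes were not tested.

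Correlations between same-numbered replicates ran from -0.029 to 0.099 within the imatinib set. Against CTRL, replicates 1 and 3 gave 0.252 and 0.238 in JTE 1h and 0.301 and 0.225 in KCl 45min. Replicate 2 gave -0.011 and 0.037, and different-numbered replicates -0.343 to 0.234. For CTRLim against CTRL same-numbered values ran from -0.21 to -0.028. Whether replicate numbers pair the samples is not given by the labels and was not tested. With the replicate block, EIF4B lost its call between the imatinib times (log2 fold change -0.90, edgeR adjusted p = 0.0609), 3 members remained called there, and no other count of calls changed.

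The log2 ratio of summed reads was 0.12, -0.59, -0.71, 0.39, -0.46 and 0.30 for IM 1h and IM 18h against CTRLim, IM 18h against IM 1h, JTE 1h, KCl 45min and CTRLim against CTRL. Per readthrough read it moved to -0.012 for IM 1h against CTRLim, -0.46 between the imatinib times, -0.034 in JTE 1h, 0.020 in KCl 45min and 0.056 for CTRLim. Without EEF1A1 it moved to -0.31 for IM 18h against CTRLim, -0.50 against IM 1h, -0.62 in KCl 45min and 0.11 for CTRLim. With CTRL as control it was 0.41 at 1 h and -0.29 at 18 h. In JTE 1h it was 0.63 without replicate 1 and 0.16 without replicate 2.

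Depth limited the tests to 5 to 14 members per comparison, and 30 members had fewer than 30 reads in all.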
